A study of Mus musculus with 6 samples.

Results

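The nuclear genes of cytochrome c oxidase that exist as an isoform of wide expression and an isoform restricted to certain tissues were examined in subcutaneous white adipose tissue (scWAT). The 10 genes form 5 pairs, *Cox4i1* and *Cox4i2*, *Cox6a1* and *Cox6a2*, *Cox6b1* and *Cox6b2*, *Cox7a2* and *Cox7a1*, and *Cox8a* and *Cox8b*, and were taken by symbol from the 55401 genes of the count tables, where all 10 were found. RNA-seq libraries came from 3 YT-FF mice, which carry floxed *Yap* and *Taz* alleles without Cre and are labelled WT, and from 3 YT-AKO mice, which carry the same floxed alleles with Cre driven by *Adipoq*. All mice were males of 8 weeks. The *Adipoq* promoter is active in adipocytes, so the other cells of the tissue kept both genes, and the libraries were made from whole tissue.

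Cytochrome c oxidase, or complex IV, is the last enzyme of the mitochondrial respiratory chain and passes electrons from cytochrome c to oxygen. Its catalytic core is encoded by the mitochondrial genome, and the nuclear subunits around it set its assembly, stability and regulation. For several of these subunits separate genes encode isoforms. *Cox6a2*, *Cox7a1* and *Cox8b* are the heart and skeletal muscle forms, and *Cox7a1* and *Cox8b* are also known from brown and beige fat. *Cox4i2* is known from lung and pericytes, and *Cox6b2* from testis.

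The targeted genes were checked first. Counts of *Yap1* were 1622, 1300 and 1295 for YT-FF 1, 2 and 3, against 649, 492 and 529 for the libraries labelled YT-AKO 1, 2 and 3. Those of *Wwtr1*, which encodes TAZ, were 1818, 1729 and 1918 against 3015, 2253 and 2716. In CPM these were 77.5, 76.0 and 98.8 against 175, 133 and 161. The total over this gene was thus higher in the libraries labelled YT-AKO. Counts per gene sum all exons and do not resolve the floxed ones, so the deletion of *Taz* could not be checked from them. By immunoblot, the study reported less YAP and TAZ protein in scWAT of YT-AKO mice. The groups are named by their labels throughout. The libraries held 17740987 to 21838493 counts. YT-AKO 2 stood apart for the isoform genes: 9 of the 10 had their highest level there, at 1.39 to 3.68 times the mean of YT-AKO 1 and 3, and only *Cox6a2* was lower, at 0.520 times. This was not particular to them, as the other nuclear complex IV subunits with counts were at 1.72 to 3.21 times that mean. The 37 genes of the mitochondrial chromosome are listed at 0 counts in all 6 libraries, so the mitochondrially encoded core subunits could not be compared. Adipocyte markers (7 genes) summed to 10101 to 15123 CPM in YT-FF and 17128 to 29302 CPM in YT-AKO. Only 2 of the 7 (*Fabp4* and *Lipe*) were called higher, none was lower, their median log2 fold change was 0.40, and *Fabp4* made the largest contribution to the sum. Of 2 markers of the classical brown depot, *Zic1* was at 0 in every library and *Lhx8* was at 3.09 to 6.46 CPM in YT-FF and 2.42 to 4.73 CPM in YT-AKO. CPM are counts scaled to library size after normalization with TMM. TMM gives each library 1 scaling factor, taken from the genes left after the most extreme are trimmed, and assumes that most genes do not change. The factors were 1.07 to 1.16 in YT-FF and 0.777 to 0.955 in YT-AKO. In whole tissue, fewer cells of a type and less RNA per cell cannot be told apart.

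The isoforms of a pair are separate genes whose messages can be distinguished by their reads. The coding sequences of *Cox8b* (chr7:140898945-140900446, minus strand) and *Cox8a* (chr19:7215153-7217616, minus strand) are shown because this pair carried the largest difference. They are taken from the GENCODE transcripts on GRCm38, with the gene spans given as coordinates, and capitals mark the bases that differ from, or have no partner in, the other isoform in a global alignment.
Cox8b coding: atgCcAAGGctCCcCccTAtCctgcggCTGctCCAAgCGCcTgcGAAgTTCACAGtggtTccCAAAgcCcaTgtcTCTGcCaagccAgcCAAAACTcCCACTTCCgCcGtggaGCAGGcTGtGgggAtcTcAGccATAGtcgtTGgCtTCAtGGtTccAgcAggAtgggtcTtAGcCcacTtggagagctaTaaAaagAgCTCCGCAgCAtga
Cox8a coding: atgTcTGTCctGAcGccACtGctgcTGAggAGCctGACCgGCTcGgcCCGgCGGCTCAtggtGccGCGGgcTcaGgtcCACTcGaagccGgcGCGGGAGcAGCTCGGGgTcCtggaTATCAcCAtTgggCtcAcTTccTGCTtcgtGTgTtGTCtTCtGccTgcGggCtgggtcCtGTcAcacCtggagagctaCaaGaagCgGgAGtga
*Cox8b* is 213 coding bases long and *Cox8a* 210, and 106 of 207 aligned bases (51.2%) were identical.

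The same display is given for *Cox7a1* (chr7:30184144-30186078, plus strand) and *Cox7a2* (chr9:79755361-79759878, minus strand), the other pair whose restricted member rose.
Cox7a1 coding: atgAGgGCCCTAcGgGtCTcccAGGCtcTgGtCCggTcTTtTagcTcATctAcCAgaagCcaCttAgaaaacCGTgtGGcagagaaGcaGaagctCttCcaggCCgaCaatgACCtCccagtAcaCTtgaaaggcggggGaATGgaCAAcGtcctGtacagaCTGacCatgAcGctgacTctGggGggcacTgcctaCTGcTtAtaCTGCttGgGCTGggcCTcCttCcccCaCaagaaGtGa
Cox7a2 coding: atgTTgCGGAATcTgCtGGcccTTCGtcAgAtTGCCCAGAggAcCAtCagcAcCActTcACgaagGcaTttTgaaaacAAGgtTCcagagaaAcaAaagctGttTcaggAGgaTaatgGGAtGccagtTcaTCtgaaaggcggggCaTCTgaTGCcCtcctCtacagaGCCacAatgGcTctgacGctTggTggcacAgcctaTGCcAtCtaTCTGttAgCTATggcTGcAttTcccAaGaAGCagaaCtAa
Here 150 of 243 aligned bases (61.7%) were identical. Across the 5 pairs identity ran from 51.2% to 61.8%, and the longest stretch that partners shared was 10 to 14 bases. No word of 50 bases was common to the transcripts of any pair. Fragments that overlapped several genes were left out of the counts, which touches *Cox4i1*, of whose exons 9.94% overlap those of *Emc8*, and *Cox6a2*, of whose exons 10.3% overlap those of *Itgad*. In *Cox6a1*, 12.3% of the words of 50 bases also occur in the gene model AC148174.2, so its counts are less certain.

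All isoform genes had a positive log2 fold change in the libraries labelled YT-AKO, and 7 of the 10 rose by edgeR's quasi-likelihood test at an adjusted p under 0.05 (Benjamini-Hochberg over the 16807 tested genes). These were the 5 isoforms of wide expression and, among the restricted isoforms, *Cox7a1* and *Cox8b*. None fell. *Cox4i2*, *Cox6a2* and *Cox6b2* did not pass. Of all tested genes, 12.6% were called higher and 9.01% lower. The median log2 fold change of the 10 genes was 1.96, with a range of 1.01 to 4.56, and that of all tested genes was -0.02. In 9 of the 10 every YT-AKO library was above every YT-FF library in CPM, *Cox6a2* being the exception. Over all tested genes, 25.7% were separated in this direction and 25.8% in the other. The calls depended on the YT-FF libraries: without YT-FF 1 or without YT-FF 2 none of the 10 passed (edgeR adjusted p of the 7 genes between 0.110 and 0.121), and over all tested genes 0 and 2 were then called, with 4665 and 4507 at an unadjusted p under 0.05. Without YT-FF 3, 5 of the 10 passed, *Cox4i1* and *Cox7a2* being lost. Of the 17458 genes tested in that setting, 704 were called higher and 528 lower.

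**Figure D1:**
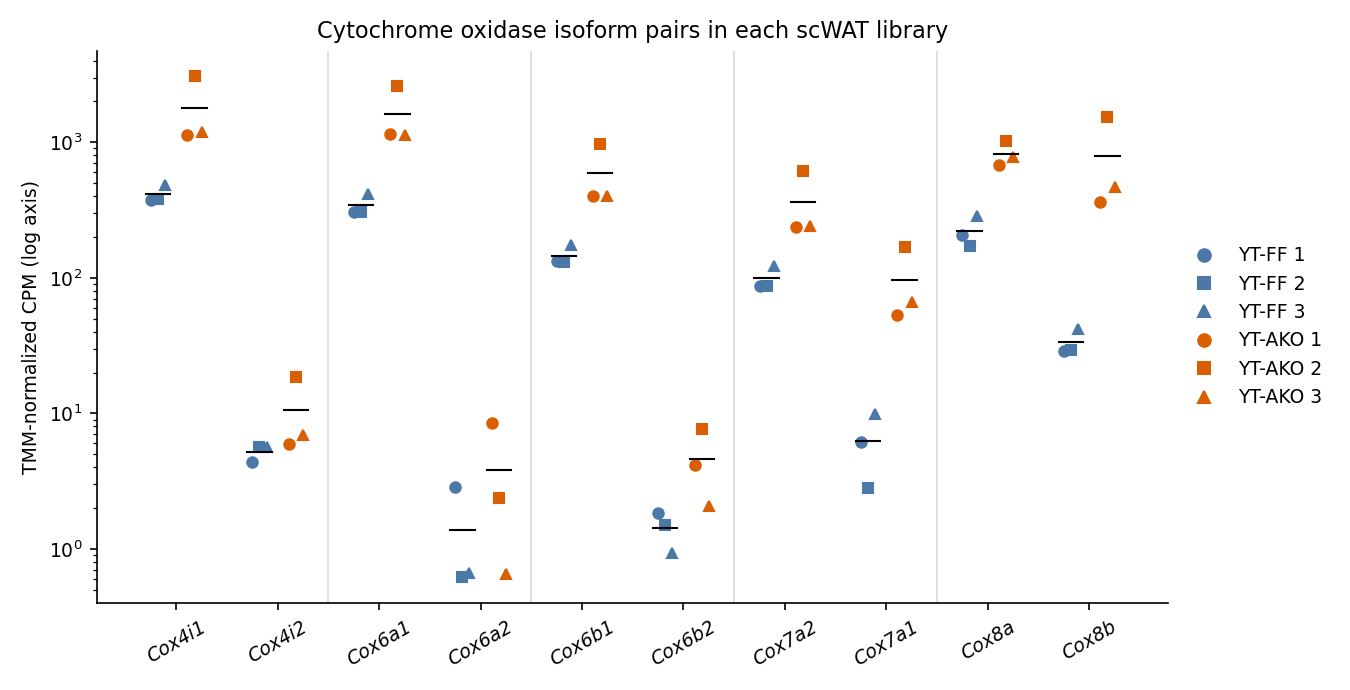
TMM-normalized CPM of the 10 isoform genes (log axis) in each of the 6 libraries, with pairs between grey lines and the isoform of wide expression on the left of each pair. Points are libraries and black bars are group means (n = 3), and the YT-AKO points lie above the YT-FF points for every gene except *Cox6a2*.

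*Cox8b* had the largest change of the 10. Its level was 28.9, 29.2 and 42.1 CPM in YT-FF 1, 2 and 3 and 362, 1527 and 468 CPM in YT-AKO 1, 2 and 3. The groups were far apart, and YT-AKO 2 was more than 3-fold above the other YT-AKO libraries. The log2 fold change was 4.56 (SE 0.596, edgeR adjusted p = 0.0166), a 23.5-fold rise. Without YT-AKO 2 the log2 fold change was 3.64 and the call held (edgeR adjusted p = 0.000478).

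*Cox8a*, the subunit 8 isoform of most tissues, rose less. It was at 206, 172 and 284 CPM in YT-FF and at 685, 1014 and 772 CPM in YT-AKO, with no overlap, and among the 7 isoform genes that rose it had the smallest SE. Its log2 fold change was 1.90 (SE 0.259, edgeR adjusted p = 0.0166).

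*Cox7a1*, the muscle and brown fat form of subunit 7a, had 6.09, 2.81 and 9.94 CPM in YT-FF and 52.9, 169 and 66.1 CPM in YT-AKO. All YT-AKO libraries exceeded the highest YT-FF library more than 5-fold. The log2 fold change was 3.94 (SE 0.599, edgeR adjusted p = 0.0171), and 3.25 without YT-AKO 2. Its partner *Cox7a2* was at 87.6, 87.4 and 123 CPM in YT-FF and 235, 618 and 242 CPM in YT-AKO. It thus rose too, with a log2 fold change of 1.88 (SE 0.401, edgeR adjusted p = 0.0238), which was 1.26 without YT-AKO 2.

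The remaining isoforms of wide expression rose by similar amounts. *Cox4i1*, the common form of the subunit that regulates the enzyme in response to ATP, had 376, 384 and 486 CPM in YT-FF and 1127, 3091 and 1189 CPM in YT-AKO, with a log2 fold change of 2.12 (SE 0.415, edgeR adjusted p = 0.0207), or 1.48 without YT-AKO 2. *Cox6a1* was at 306, 307 and 415 CPM against 1157, 2594 and 1128 CPM, a log2 fold change of 2.25 (SE 0.369, edgeR adjusted p = 0.0177). *Cox6b1*, which encodes a subunit facing the cytochrome c binding side, had 133, 130 and 174 CPM against 404, 978 and 400 CPM and a log2 fold change of 2.03 (SE 0.379, edgeR adjusted p = 0.0196). In each of these, YT-AKO 1 and 3 were close to each other and YT-AKO 2 was more than 2-fold above them.

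The 3 restricted isoforms that did not pass were present at low levels. *Cox4i2* had 4.39, 5.62 and 5.61 CPM in YT-FF and 5.93, 18.7 and 6.91 CPM in YT-AKO. The separation of YT-AKO 1 from YT-FF was small, and the log2 fold change of 1.01 (SE 0.443, edgeR adjusted p = 0.127) was 0.30 without YT-AKO 2. The counts of *Cox6b2* were 43, 34 and 18 against 71, 129 and 35 in YT-AKO, or 1.83, 1.49 and 0.927 CPM against 4.13, 7.61 and 2.07 CPM. Its log2 fold change was 1.69 (SE 0.518), with an edgeR adjusted p of 0.0526, and it passed in DESeq2 (adjusted p = 0.0107). Markers of testis germ cells (4 genes) summed to at most 0.256 CPM in any library, and *Tnp1* and *Odf1* were at 0.

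The muscle form of subunit 6a, *Cox6a2*, was counted 67, 14 and 13 times in YT-FF against 145, 40 and 11 times in YT-AKO. In CPM these were 2.86, 0.615 and 0.669 against 8.43, 2.36 and 0.650, so that the lowest YT-AKO library was within the YT-FF range. The log2 fold change of 1.45 had an SE of 0.937 (edgeR adjusted p = 0.273). It was 0.13 without YT-AKO 1 and 2.56 without YT-FF 1. Skeletal muscle markers were examined beside it. The 18 markers summed to 713, 222 and 290 CPM in YT-FF and to 4631, 643 and 277 CPM in YT-AKO, highest in the same library as *Cox6a2*. In YT-AKO 2 single markers went both ways. There *Acta1* (312 CPM) and *Tnni2* (46.4 CPM) were above every YT-FF library, and *Atp2a1* (7.73 CPM) and *Ttn* (5.25 CPM) below every one. Of the 15 that were tested, 1 (*Acta1*, skeletal actin) was higher and none was lower. *Myh4*, the fast myosin heavy chain, ran from 35.1 to 160 CPM in YT-FF and had 886, 43.1 and 2.90 CPM in YT-AKO. The part of muscle RNA in the *Cox6a2* values was not tested. In YT-AKO 3, 13 of the 18 muscle markers were below every YT-FF library and 1, *Acta1* at 198 CPM, was above them all. Their sum there, 277 CPM, was within the YT-FF range. The share of all tested genes that lay below every YT-FF library in YT-AKO 3 was not determined. *Cox8b* was at 468 CPM and *Cox7a1* at 66.1 CPM in that library, and both were highest in YT-AKO 2. The part of muscle RNA in the values of *Cox8b* and *Cox7a1* was not tested either. Without YT-AKO 1 their log2 fold changes were 4.92 and 4.24.

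**Figure D2:**
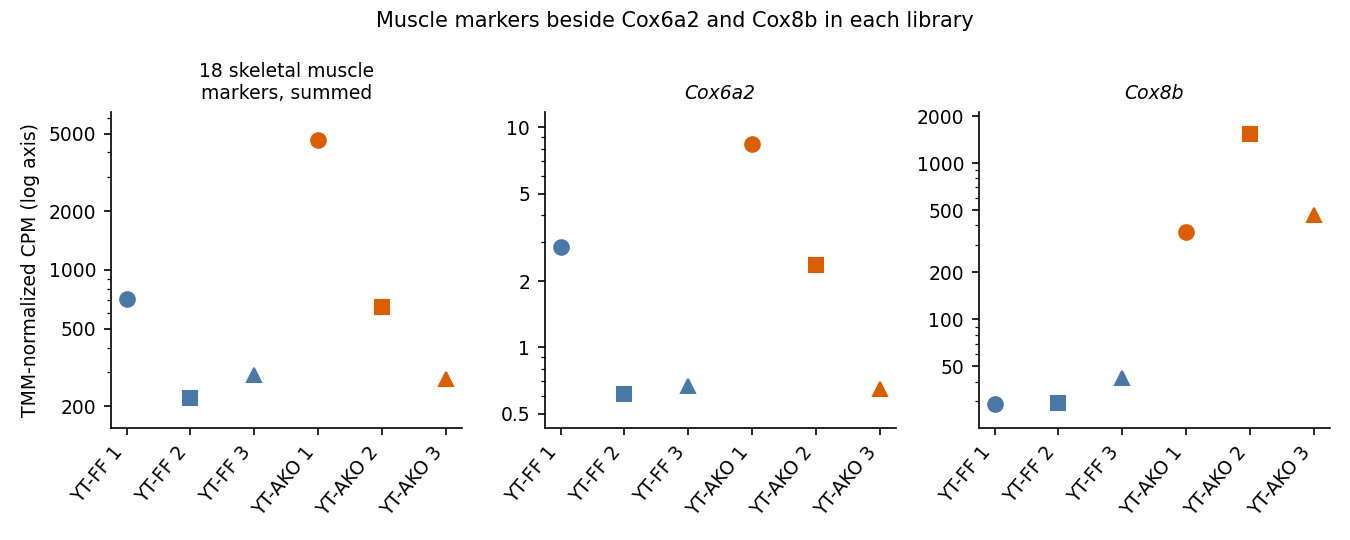
Summed TMM-normalized CPM of 18 skeletal muscle markers (left), and CPM of *Cox6a2* (middle) and *Cox8b* (right), in each library (log axes with their own ranges). YT-AKO 1 was highest for the muscle markers (4631 CPM) and for *Cox6a2* (8.43 CPM), whereas *Cox8b* was highest in YT-AKO 2 (1527 CPM).

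Markers of other cells were examined beside the restricted isoforms. The 6 thermogenic fat genes summed to 129, 136 and 182 CPM in YT-FF and 1242, 1917 and 1260 CPM in YT-AKO, and 4 of the 6 (*Ucp1*, *Cidea*, *Dio2* and *Elovl3*) rose, none fell. *Ppargc1a*, the coactivator of mitochondrial genes, had a log2 fold change of 0.02, and *Cpt1b*, the muscle and brown fat carnitine palmitoyltransferase, one of 0.10. The sum was carried by *Cidea*, which like *Ucp1* was highest in YT-AKO 2, whereas *Dio2* and *Elovl3* were highest in YT-AKO 1. Pericyte markers (8 genes), listed for *Cox4i2*, summed to 553 to 576 CPM in YT-FF and 456 to 550 CPM in YT-AKO, with 2 of 8 higher and none lower. The list was split, with 5 positive and 3 negative log2 fold changes. *Higd1b* (1.90) and *Vtn* (0.63) were the 2 called higher. *Notch3* (-0.90) and *Rgs5* (-0.27) were lower in every YT-AKO library than in any YT-FF library but were not called. Smooth muscle markers (4 genes) summed to 85.3 to 110 CPM and 86.8 to 124 CPM, with none called. Endothelial markers (4 genes) had 1 lower, and B cell markers (4 genes) 2 lower, with no gene of either list higher. The part of these cells in the isoform values was not tested.

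The balance of each pair was then compared within libraries, where differences in library scaling cancel. The ratio is that of the restricted isoform to the isoform of wide expression, on a log2 scale of counts with 0.5 added. *Cox8b* over *Cox8a* was -2.84, -2.56 and -2.76 in YT-FF and -0.92, 0.59 and -0.72 in YT-AKO. The difference of 2.37 (SE 0.481) equals a 5.15-fold higher ratio, and the groups did not overlap. *Cox7a1* over *Cox7a2* was -3.84, -4.95 and -3.62 in YT-FF and -2.15, -1.87 and -1.87 in YT-AKO. This is a difference of 2.17 (SE 0.420), a 4.51-fold higher ratio, also without overlap, and here YT-AKO 2 did not stand apart.

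*Cox4i2* over *Cox4i1* moved the other way. It was -6.41, -6.09 and -6.43 in YT-FF and -7.56, -7.37 and -7.42 in YT-AKO, a difference of -1.14 (SE 0.125) without overlap, which leaves 0.453 of the YT-FF ratio. This difference had the smallest SE of the 5 pairs. *Cox6a2* over *Cox6a1* averaged -8.29 in YT-FF and -9.29 in YT-AKO (SE of the difference 1.36), *Cox6b2* over *Cox6b1* differed by -0.36 (SE 0.502), and for both the groups overlapped. In the exact two-sided permutation test the 3 pairs without overlap had p = 0.1, the smallest that 3 against 3 libraries allow, and the other two p = 0.5. Over the 5 pairs the Benjamini-Hochberg adjusted values of the exact test were 0.167 and 0.5, so no ratio could pass 0.05 in this design.

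**Figure D3:**
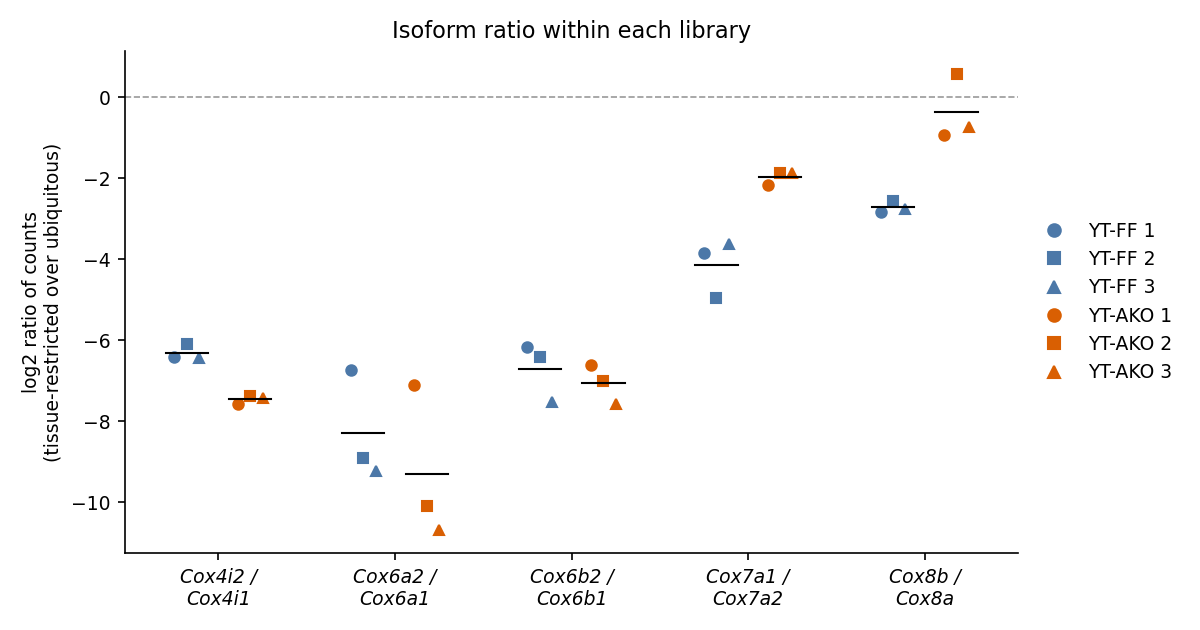
Log2 ratio of the counts of the restricted isoform to those of the isoform of wide expression in each library. Points are libraries and bars are group means (n = 3). The YT-AKO points lie above YT-FF for *Cox7a1*/*Cox7a2* and *Cox8b*/*Cox8a*, below for *Cox4i2*/*Cox4i1*, and overlap for the other pairs.

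As a share of the pair, with counts divided by the length of the summed exons, *Cox8b* made up 19.4%, 22.6% and 20.3% of the subunit 8 messages in YT-FF 1, 2 and 3. In YT-AKO 1, 2 and 3 it made up 47.6%, 72.1% and 51.0%. Counting error alone gave 95% Wilson intervals of 21.2% to 24.1% in YT-FF 2 and 46.9% to 48.4% in YT-AKO 1, and these did not reach each other. *Cox8b* was thus the minor isoform in each YT-FF library and about level with *Cox8a* or above it in YT-AKO. With the length of the longest coding transcript in place of the summed exons, the YT-AKO shares were 44.7%, 69.7% and 48.1%, so that *Cox8b* exceeded *Cox8a* in YT-AKO 2 only.

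*Cox7a1* made up 10.9%, 5.38% and 12.5% of the subunit 7a messages in YT-FF and 28.4%, 32.5% and 32.6% in YT-AKO, so *Cox7a2* remained the major form in all 6 libraries. *Cox4i2* made up 2.25%, 2.80% and 2.22% of the subunit 4 messages in YT-FF and 1.02%, 1.18% and 1.13% in YT-AKO. The shares of *Cox6a2* were 0.166% to 0.955% in YT-FF and 0.0594% to 0.747% in YT-AKO, and those of *Cox6b2* 0.339% to 0.875% and 0.330% to 0.649%. With coding transcript lengths the *Cox6b2* share reached 1.44% in YT-FF 1.

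**Figure D4:**
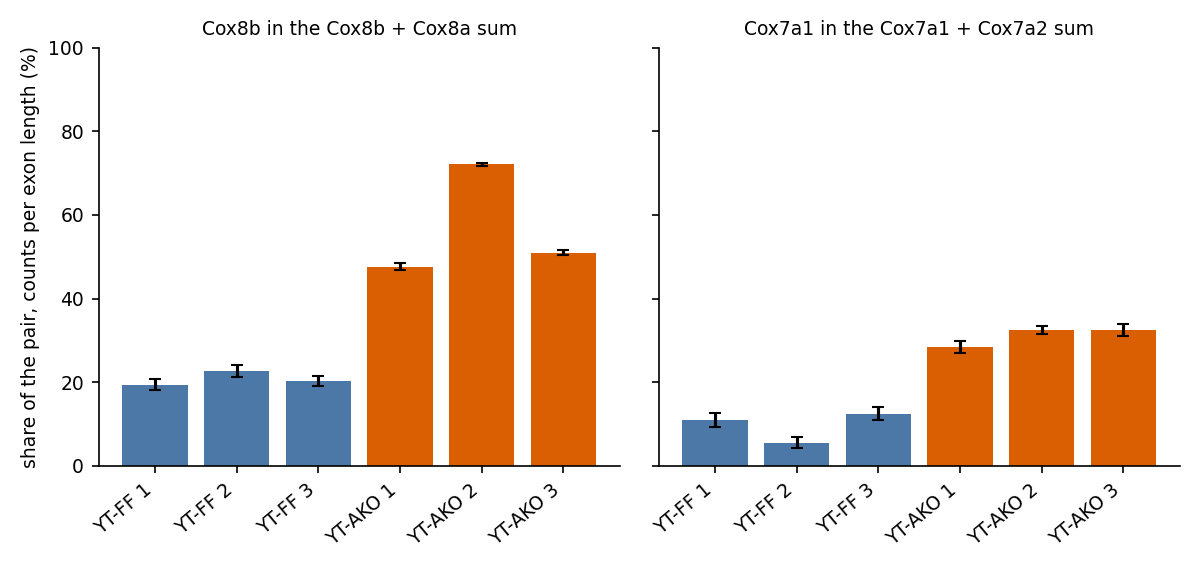
Share of the restricted isoform in its pair, as counts per summed exon length, for *Cox8b* (left) and *Cox7a1* (right) in each library. Bars are single libraries and error bars are 95% Wilson intervals of the counts. *Cox8b* reached 47.6% to 72.1% in YT-AKO and *Cox7a1* 28.4% to 32.6%.

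Levels of different genes were compared in TPM, which divides counts by summed exon length and scales each library to the same total. In YT-FF the order was *Cox6a1* at 1844 ± 249 TPM (SD, n = 3), *Cox8a* at 1344 ± 287, *Cox4i1* at 1013 ± 104, *Cox6b1* at 777 ± 95.5, *Cox7a2* at 397 ± 62.8 and *Cox8b* at 350.0 ± 62.2 TPM. Below these came *Cox7a1* at 43.8 ± 23.1, *Cox4i2* at 25.1 ± 3.42, *Cox6a2* at 7.75 ± 7.26 and *Cox6b2* at 4.90 ± 1.71 TPM. The ranges of the neighbours *Cox8a* and *Cox4i1*, *Cox7a2* and *Cox8b*, *Cox7a1* and *Cox4i2*, and *Cox6a2* and *Cox6b2* overlapped.

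In YT-AKO the order was *Cox6a1* at 5147 ± 1157 TPM, *Cox8b* at 4590 ± 2487, *Cox8a* at 3115 ± 262, *Cox4i1* at 2536 ± 831, *Cox6b1* at 1849 ± 497, *Cox7a2* at 846 ± 261 and *Cox7a1* at 388 ± 146 TPM. *Cox4i2* followed at 28.8 ± 11.2, *Cox6a2* at 14.4 ± 17.5 and *Cox6b2* at 9.16 ± 3.64 TPM. Ranges of neighbours overlapped from *Cox6a1* down to *Cox6b1*, and again from *Cox4i2* down to *Cox6b2*. Among 20 nuclear complex IV genes *Cox8b* moved from rank 8 to rank 2 in mean TPM, or from rank 11 to rank 3 with coding transcript lengths. In TPM *Cox4i2* overlapped between the groups (21.4, 28.2 and 25.7 against 21.0, 41.6 and 23.9 TPM), although its CPM did not. The same held for *Cox6b2* (6.36, 5.32 and 3.02 against 10.4, 12.0 and 5.08 TPM), and *Cox6a2* overlapped on both scales. The restricted isoforms together held 7.39%, 7.17% and 7.66% of the TPM of the 10 genes in YT-FF and 20.8%, 32.9% and 24.4% in YT-AKO.

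The sum of both isoforms was higher for every pair. In TPM the subunit 8 sum was 4.48-fold higher in YT-AKO, and the others were 2.40-fold (subunit 4), 2.76-fold (6a), 2.33-fold (6b) and 2.74-fold (7a) higher. No sum overlapped between the groups, and each had p = 0.1 in the exact permutation test. On the scale of TMM-normalized counts per kilobase the same sums were 3.74-fold to 7.18-fold higher, so the size of the rise depends on the scaling while its direction did not.

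The other nuclear subunits were compared as a list of 10. *Cox7b2* and *Cox8c*, known from testis, were at 0 counts in all libraries. This allows up to 3 counts, or 0.137 to 0.169 CPM of the library totals. Of the 8 that were tested, 7 rose and none fell (*Cox5a*, *Cox5b*, *Cox6c*, *Cox7a2l*, *Cox7b*, *Cox7c* and *Ndufa4*). *Cox7a2l* lost its call with a correction for gene length (edgeR adjusted p = 0.0887) and with scaling by library totals alone (edgeR adjusted p = 0.0615). *Ndufa4l2*, the hypoxia-associated relative of *Ndufa4*, had a log2 fold change of 1.41 (edgeR adjusted p = 0.0746). The median log2 fold change of the 8 was 1.82, from 1.12 for *Cox7a2l*, a factor in supercomplex assembly, to 2.33 for *Cox5b*. The 5 isoforms of wide expression, at 1.88 to 2.25, were within this range, and *Cox7a1* and *Cox8b* were above it. *Cycs*, the somatic cytochrome c gene, rose with a log2 fold change of 2.03 (edgeR adjusted p = 0.0146), and its testis form *Cyct* had 2 counts in YT-AKO 1 and none elsewhere.

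**Figure D5:**
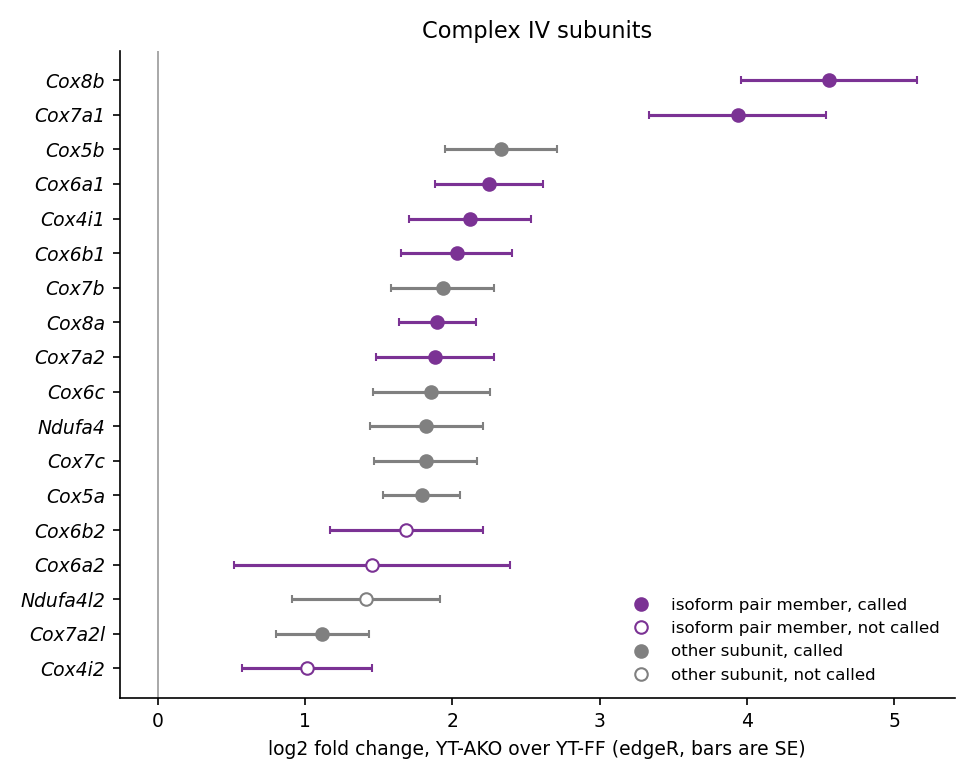
Log2 fold change of YT-AKO over YT-FF with its SE for the 18 tested complex IV genes, isoform pair members in purple and other subunits in grey. Filled points had an edgeR adjusted p under 0.05. *Cox8b* (4.56) and *Cox7a1* (3.94) lie apart from the other 16, which run from 1.01 to 2.33.

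The 10 isoform genes are short, with summed exons of 360 to 1550 bases, and short genes had higher fold changes in these libraries. Over all tested genes, as a description across genes and not across replicates, the rank correlation (Spearman's rho) of fold change with length was -0.376, or -0.283 when YT-AKO 2 was left out. With a correction for length the same number of the 10 genes (7) was called, and 1692 of the 16807 tested genes were called higher. The log2 fold changes were then 4.40 for *Cox8b*, 1.56 for *Cox8a*, 1.41 for *Cox7a2* and 0.55 for *Cox4i2*. The difference between the edgeR log2 fold changes of partners changed little, to 2.84 for *Cox8b* and *Cox8a*, 2.19 for *Cox7a1* and *Cox7a2* and -1.13 for *Cox4i2* and *Cox4i1*. Without the correction the log2 fold changes of these partners were 4.56 and 1.90, 3.94 and 1.88, and 1.01 and 2.12.

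The genes whose profile over the 6 libraries was most like that of a restricted isoform were listed by the root mean square difference of centred log2 CPM. For *Cox7a1* these were the processed pseudogene *Gm16418* (0.243), *Etfb* (0.414), which encodes a subunit of the electron transfer flavoprotein, and *Cox8b* (0.448). For *Cox8b* they were *Cox7a1* (0.448), *S100b* (0.451) and *Gm16418* (0.490). The profile of *Cox6a2* was closest to those of *Sgca* (0.242), *Myo18b* (0.256) and *Eno3* (0.321), which encode a sarcoglycan, an unconventional myosin and muscle enolase. *Cox4i2* was closest to *Rps24-ps3* (0.0795), *Nsmce1* (0.0845) and *Snrpd1* (0.0860).

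Promoter sequences from RefSeq (GRCm38.p6) were found for 7 of the 10 genes, and not for *Cox4i1*, *Cox4i2* and *Cox6a2*. The 250 bases before the start are shown for the pairs whose balance moved towards the restricted isoform, each at its own strand, with CG dinucleotides in capitals because the partners differed in them.
Cox8b promoter (chr7:140900447-140900696, minus strand): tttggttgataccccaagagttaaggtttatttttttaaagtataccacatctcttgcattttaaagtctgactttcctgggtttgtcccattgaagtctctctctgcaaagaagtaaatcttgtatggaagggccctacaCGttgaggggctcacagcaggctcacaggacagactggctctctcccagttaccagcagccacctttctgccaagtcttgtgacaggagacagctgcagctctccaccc
Cox8a promoter (chr19:7217617-7217866, minus strand): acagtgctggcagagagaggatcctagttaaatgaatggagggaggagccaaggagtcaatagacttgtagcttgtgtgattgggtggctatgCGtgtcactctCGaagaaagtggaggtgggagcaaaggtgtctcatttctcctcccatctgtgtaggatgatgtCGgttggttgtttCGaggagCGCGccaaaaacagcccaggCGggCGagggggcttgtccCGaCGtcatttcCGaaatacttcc
Cox7a1 promoter (chr7:30183921-30184170, plus strand): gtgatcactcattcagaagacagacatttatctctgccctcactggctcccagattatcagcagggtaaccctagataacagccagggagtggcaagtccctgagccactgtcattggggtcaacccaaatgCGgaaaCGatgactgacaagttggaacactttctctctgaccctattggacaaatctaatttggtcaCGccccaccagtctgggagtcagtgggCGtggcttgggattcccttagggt
Cox7a2 promoter (chr9:79759854-79760103, minus strand): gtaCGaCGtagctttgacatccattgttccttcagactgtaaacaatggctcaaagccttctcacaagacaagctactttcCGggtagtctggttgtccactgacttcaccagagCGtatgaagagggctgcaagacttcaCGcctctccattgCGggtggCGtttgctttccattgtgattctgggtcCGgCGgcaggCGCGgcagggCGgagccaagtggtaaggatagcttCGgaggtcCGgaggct
*Cox8b* held 1 CG and *Cox8a* 11, and *Cox7a1* held 4 and *Cox7a2* 14. The other 3 promoters held 8 (*Cox6b2*), 14 (*Cox6b1*) and 26 (*Cox6a1*). The median of all 32851 promoters was 6, and 18.8% of them held no more than 1 CG and 44.4% no more than 4. GC content was 47.2% in *Cox8b*, 51.2% in *Cox7a1*, 52.8% in *Cox8a* and 54.8% in *Cox7a2*, with a median of 52.4%.

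The 9 motifs searched on both strands of the 7 windows had matches in *Cox6a1*, *Cox6b1*, *Cox8a* and *Cox8b* only. The *Cox8b* window held 1 E-box of the MyoD type, CAGCTG, whose match lies 19 bases before the start, and 13.0% of all promoters hold these letters. The windows of *Cox7a1*, *Cox6b2* and *Cox7a2*, the last an isoform of wide expression, held none of the motifs. In the isoforms of wide expression, the CREB half-site TGACG was present in *Cox8a* and *Cox6b1* (17.8% of all promoters), the ETS motif CCGGAAG in *Cox6a1* and *Cox6b1* (6.91%), and the C/EBP motif TTGCNNAA (9.56%) and the NRF1 motif GCGCATGC (2.26%) in *Cox6a1*. The ERR half-site AAGGTCA, which contains the nuclear receptor half-site AGGTCA, that half-site itself, the YY1 motif AAGATGG and the TEAD motif CATTCC were in none of the 7 windows. These matches describe letters in a window and were not tested for binding.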

How the data were processed

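The authors aligned paired-end reads with HISAT2 (genome mm10) and summed fragments over GENCODE vM25 exons in featureCounts 2.0.1, per the file headers and the labels. The deposited values are raw counts per gene, unstranded, without normalization, and exclude multi-mapping fragments and those shared by overlapping genes. Symbols were matched for 55141 of 55401 genes through GENCODE vM21 on the same build. Total counts ran from 17740987 to 21838493, and intervals and floors (3 counts) cover counting error only.

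Counts were tested in R 4.3.3 with edgeR 4.0.16 (TMM, filterByExpr with a minimum count of 10, quasi-likelihood test, Benjamini-Hochberg adjustment, threshold 0.05), with DESeq2 1.42.0 and limma 3.58.1 as alternatives. The biological coefficient of variation was 0.288. CPM use TMM factors and TPM summed exon lengths. Ratios and sums of pairs were compared with exact two-sided permutation tests. Coding sequences were aligned with Biopython 1.88. Replicates are separate mice per the study's methods. Same-numbered libraries were checked for pairing (correlations of deviations 0.126, -0.118 and -0.0893) and were not paired. The genes named are the 10 isoforms, the other subunits, cytochrome c genes, markers, and the 3 closest profiles of 4 restricted isoforms. The members and lists were chosen with earlier results of these data known. Alternatives were other normalizations, filters, length corrections, pseudocounts, gene lengths, a replicate block and omission of libraries.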

Additional observations from a re-analysis of the deposited data

How the results depend on the processing

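The number of isoform genes called higher was 7 or 8 under DESeq2, limma-voom, other normalizations, other filters, robust estimation and length correction, and that of the other subunits 6 to 8. Over all tested genes, those called higher in these settings ran from 1137 of 16807 (library totals alone) to 2847 of 18874 (DESeq2). With the replicate number as a block, which the pairing check gave no ground for, 0 isoform genes and 0 other subunits were called, and the cause was not tested. The adjusted p of the 7 genes was then 0.0528 to 0.0618, and 24 and 9 of all tested genes were called higher and lower. With length correction and replicate block together, 1 isoform gene (*Cox8b*) and 0 other subunits were called, and 59 and 22 of all tested genes were called higher and lower. Leaving out 1 library gave 0 to 8 isoform genes and 0 to 8 other subunits called higher, the lowest without YT-FF 1 or YT-FF 2, and 4 other subunits without YT-FF 3. Over all tested genes, those called higher ran from 0 (without YT-FF 1 or YT-FF 2) to 2925 of 17350 (without YT-AKO 2). Leaving out YT-FF 1 and YT-AKO 1 together, an alternative chosen after the data were seen, gave 0 isoform genes and 0 other subunits. Of the 16918 genes tested in that setting, 0 were called in either direction, and the cause was not tested. *Cox6b2* passed under DESeq2, with no filter, with at least 10 counts in every library and without YT-AKO 3. None of the isoform genes or other subunits was called lower under any of these alternatives, and no ratio, sum or fold change of the isoform genes reversed. For ratios and sums the replicate block returns the main difference by its form, so it could not have reversed them. Without 1 library at a time, the log2 ratio differed between groups by 1.90 to 2.65 for *Cox8b*/*Cox8a*, 1.77 to 2.43 for *Cox7a1*/*Cox7a2*, -1.20 to -1.03 for *Cox4i2*/*Cox4i1*, -2.10 to -0.23 for *Cox6a2*/*Cox6a1* and -0.77 to -0.09 for *Cox6b2*/*Cox6b1*. Scaling by library totals alone moved the median log2 fold change of all tested genes to -0.34 and the calls from 2121 higher and 1515 lower to 1137 and 2828, and all 7 isoform genes stayed called. Depth limits *Cox6a2*, with 11 to 145 counts, and *Cox6b2*, with 18 to 129. Length correction without YT-AKO 2 and the coding transcript lengths were also chosen after the data were seen.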
